A study of Mus musculus with 8 samples.

Results

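Colon was compared with intestine in mice without Nanog overexpression, a comparison of 2 normal gut regions within a study of Nanog-induced hyperplasia. It used 4 of the study's 8 Illumina bead arrays, on which the brightness of probe-bearing beads stands for the level of a transcript: 2 arrays of colon cells and 2 arrays of intestine cells, all without Nanog overexpression, which the labels call biological replicates. The other 4 arrays, 2 of colon and 2 of intestine with Nanog overexpression, entered the fit for the spread between replicates and served as a separate measurement of the regional difference. Strain, age and sex of the mice, the segment that intestine stands for, how Nanog was expressed and whether colon and intestine came from the same animals are not given in the sources used here. Genes were taken when both arrays of colon, both arrays of intestine, or all 4 showed their probe above background (detection p-value under 0.01). The labels do not tie replicates to separate animals, so p-values measure only the spread between these samples. The filter left 8262 genes, against 8607 when all 4 groups could qualify a gene, from an array of 25697 probes.

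The small intestine digests and absorbs nutrients through enterocytes, whose brush border carries disaccharidases and peptidases and whose inside packs dietary fat into lipoproteins, and its crypts hold Paneth cells that secrete antimicrobial defensins. The colon, which normally has no Paneth cells, recovers water and salt through colonocytes under the control of aldosterone, carries a thick mucus layer and houses dense bacteria. Position along the gut is laid down by transcription factors, among them the GATA factor Gata4 of the upper intestine and the posterior Hox genes of the hindgut.

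Between 10959 and 11993 of the 25697 probes were above background on the 4 arrays. Over the 8262 genes the replicates correlated with r = 0.967 in colon and r = 0.908 in intestine, and genes had a median replicate SD of 0.203 log2 units in colon and 0.29 in intestine. 30 genes differed by more than 2 log2 units between the colon arrays, against 271 between the intestine arrays, 113 of these higher on replicate 1 and 158 on replicate 2. Intestine replicate 1 stood high in brush border enzymes, with a mean log2 intensity of the hydrolase list of 12.74 against 10.27 on replicate 2. Replicate 2 stood high in genes of the pancreatic acinus, the digestive gland beside the duodenum, with 11.15 against 7.73 on replicate 1, and colon replicate 2 stood at 10.26 against 8.62 on colon replicate 1. The comparison without Nanog and its counts in the 34 gene lists were therefore also computed without either intestine array and without every other array in turn. The motif shares, the neighbouring pairs, the counts of the 7 later lists and the readings with Nanog were not. In bulk RNA, fewer cells of a type and less RNA per cell cannot be told apart, and this holds for every gene list below.

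Limma's moderated test called 534 of the 8262 genes at a Benjamini-Hochberg adjusted p under 0.05, which is 6.46%. Of these, 247 were higher in colon (2.99% of the genes tested) and 287 were lower (3.47%). With arrays scaled to a common median in place of common quantiles, 146 were higher and 261 lower, and the median difference of all genes moved to 0.017 log2 units from 0.112. Colon and intestine values were free of overlap for each of the 534 called genes and for 48.8% of all genes tested (30.7% with colon above, 18% with colon below). An exact permutation test of a single gene with 2 arrays a side could not go below p = 0.333, so every adjusted p here rests on limma's pooling of the spread over genes and groups. 64 genes called higher were below background on both intestine arrays, and 87 called lower were below background on both colon arrays. A gene that entered through 1 group only had to differ, so the count was also taken over the 7129 genes above background on all 4 arrays, of which 337 were called (4.73%), 157 higher and 180 lower. The count of 534 was 826 without intestine replicate 2 and 374 without intestine replicate 1. It fell to 147 and 151 without either colon array, which leave 1 colon array in the comparison, and to 283 without either array of colon with Nanog, while 123 genes (49 higher, 74 lower) were called whichever array was left out. Such calls are described below as holding whichever array was left out, and each other call named by the rule in the methods was lost without at least 1 of the colon arrays without Nanog. Leaving out either array of a group with Nanog does not touch the regional difference and gives the same calls by construction. For such a group the 2 settings are 1 change, the loss of that group from the pooled spread. They are not separate checks on samples.

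**Figure D1:**
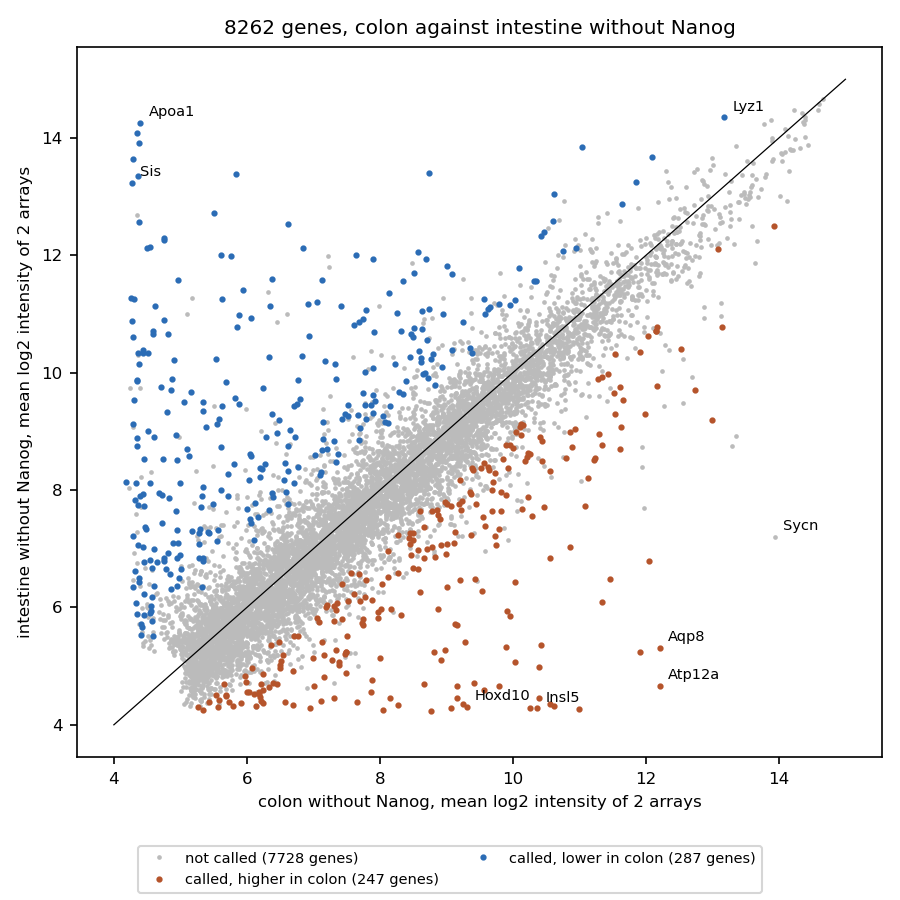
Mean normalized log2 intensity of each of the 8262 genes in colon without Nanog (x axis) and intestine without Nanog (y axis), 2 arrays each, with the line of equal values. Blue points above the line are the 287 genes called lower in colon, orange points below it the 247 called higher, and the column of blue points at the left edge holds genes near background in colon such as Apoa1 and Sis.

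The labels were set beside genes that mark epithelium and region. The 12 tested genes of the list of epithelium in both regions (Cdh1, keratins 8, 18, 19 and 20, claudins, Lgals4 and others) averaged 11.18 and 11.21 in colon, against 11.46 and 11.19 in intestine on the log2 scale, and their median difference was 0.09 beside 0.11 for all genes. 1 of the 12, Cdh17, an intestinal cadherin, passed the test, by -1.57 ± 0.34 (SE, adjusted p = 0.0397), and lost it without intestine replicate 1, without either colon array and without either array of colon with Nanog. Classical colon markers (Aqp8, Insl5, Hoxd13) were above background on both colon arrays, and enterocyte and Paneth cell genes (Sis, Apoa1, Defa20) on both intestine arrays. Each of these genes entered the test through that region alone, so they describe the regions and are no independent check of the labels. The regional markers Car4, Fabp6 and Retnlb, given below, did not pass. Several further landmarks could not be read. The probes of Hoxb13, Lgr5, Fabp1, Fabp2, Slc26a3, Slc15a1 and Nanog were not above background on both arrays of either group, and Car1, Lct and Muc2 were not analysed here. The Nanog probe was below background on all 8 arrays, those with Nanog overexpression included, so it does not check the labels of overexpression. Fabp1 and Fabp2, abundant fatty acid-binding proteins of enterocytes, had detection p-values from 0.659 to 0.957 on the intestine arrays, so a probe at background does not show that a transcript is absent.

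The 15 largest falls in colon included apolipoproteins, defensins and digestive enzymes. Apoa1, the main protein of high-density lipoprotein, had a log2 intensity of 4.52 and 4.28 in colon, against 14.20 and 14.32 in intestine. Apoa4, an apolipoprotein that enterocytes secrete with fat, had 4.29 and 4.30 in colon, against 13.77 and 13.53 in intestine, and Apoc3, an inhibitor of lipoprotein lipase, had 4.40 and 4.34 in colon, against 14.01 and 12.70 in intestine. All 6 colon values of these 3 genes were below background, and all 6 intestine values were near the top of the scale. Where both arrays of a region were below background, the fold is given as a lower bound, for which each such array counts at the dimmest signal still above background, or at the probe's own value if that is brighter. On that basis Apoa1 was at least 613-fold lower in colon (adjusted p = 0.000339), Apoa4 at least 401-fold lower (9.18e-05) and Apoc3 at least 327-fold lower (9.48e-05). In the RefSeq gene order of GRCm38.p6, Apoa1, Apoc3 and Apoa4 followed each other as neighbours among the tested genes.

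Sis, the sucrase-isomaltase that splits table sugar and starch fragments, had 4.29 and 4.25 in colon, against 13.93 and 12.55 in intestine and was at least 302-fold lower (adjusted p = 9.24e-05). Treh, the trehalase of the brush border, had 4.44 and 4.56 in colon, against 12.19 and 12.07 in intestine and was at least 139.6-fold lower (6.35e-05). Defa20, a Paneth cell alpha-defensin, had 4.28 and 4.41 in colon, against 14.50 and 13.68 in intestine and was at least 545-fold lower (2.3e-05). In each of these genes the regions lay over 7 log2 units apart at their nearest arrays, and the replicates within 1.4 of each other. Prap1, a proline-rich secreted protein of the gut, was at least 485-fold lower, Lgals2, a galectin, at least 154-fold lower, Pdzk1, a scaffold that anchors transporters at the apical membrane, at least 141-fold lower, and Cyp3a11, a drug-metabolizing cytochrome P450, at least 76-fold lower. Tm4sf5 and Ms4a10, membrane proteins, and Slc51a, a subunit of the basolateral bile acid exporter, were above background on 1 or both colon arrays and differed by -7.22 ± 0.32, -7.54 ± 0.44 and -7.55 ± 0.65 log2 units (SE). Defa26 and Reg3g, antimicrobial proteins, completed the 15 genes with the largest falls. They were spread more widely in intestine, with 4.48 and 4.29 in colon, against 14.56 and 10.58 in intestine for Defa26 and 4.30 and 4.23 in colon, against 12.36 and 10.20 in intestine for Reg3g, and lost their calls without either colon array, Reg3g also without intestine replicate 1 and without either array of intestine with Nanog. The other 13 calls held whichever array was left out. Defa20 and Defa26 belong to a family of near-identical genes, so their probes may also read other alpha-defensins. The values of Defa20 above are those of the probe in the test. A further Defa20 probe had 4.32 and 4.29 in colon, against 14.13 and 4.79 in intestine. It was above background on intestine replicate 1 only.

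The genes highest in colon included ion and water transporters, a hormone and several enzymes of steroid and glycan metabolism. Atp12a, the potassium-absorbing proton pump of the distal colon, had 12.03 and 12.39 in colon, against 4.41 and 4.93 in intestine and was at least 131-fold higher (adjusted p = 5.21e-05). Aqp8, a water channel, had 11.72 and 12.70 in colon, against 4.58 and 6.06 in intestine, a difference of 6.89 ± 0.75 (SE, adjusted p = 0.00245). Insl5, an insulin-like peptide hormone of colonic endocrine cells, had 10.04 and 10.69 in colon, against 4.23 and 4.32 in intestine and was at least 36.2-fold higher (6.35e-05). Intestine was at background for Insl5 and Atp12a on both arrays, while Aqp8 rose above background on intestine replicate 2. Hsd11b2, which inactivates glucocorticoids and so keeps them from the aldosterone receptor, had 10.10 and 10.68 in colon, against 5.29 and 4.69 in intestine, a difference of 5.40 ± 0.52 (SE, adjusted p = 0.00155). Hao2, a peroxisomal hydroxyacid oxidase, was at least 56.1-fold higher, Tgm3, a transglutaminase, at least 43.4-fold higher, and St6galnac6, a sialyltransferase, at least 24.5-fold higher. The mucosal pentraxin Mptx1 differed by 6.68 ± 0.57 log2 units, the phenol sulfotransferase Sult1a1 by 5.26 ± 0.31, the glycan-extending B3gnt7 by 5.07 ± 0.47 and the glycolytic enolase Eno3 by 5.25 ± 0.80 (SE). Cyp2d12, Cyp2d34 and Cyp2d9, cytochrome P450 genes that follow each other among the tested genes, were at least 41.7-fold higher, at least 33.5-fold higher and at least 36.9-fold higher, and as close copies their probes may read each other's transcripts. Cyp2d26, a further member of that subfamily, went the other way, by -4.15 ± 0.44 (SE, adjusted p = 0.00217). Of the 15 genes with the largest rises, 13 calls held whichever array was left out, and those of Eno3 and Cyp2d9 were lost without either colon array.

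**Figure D2:**
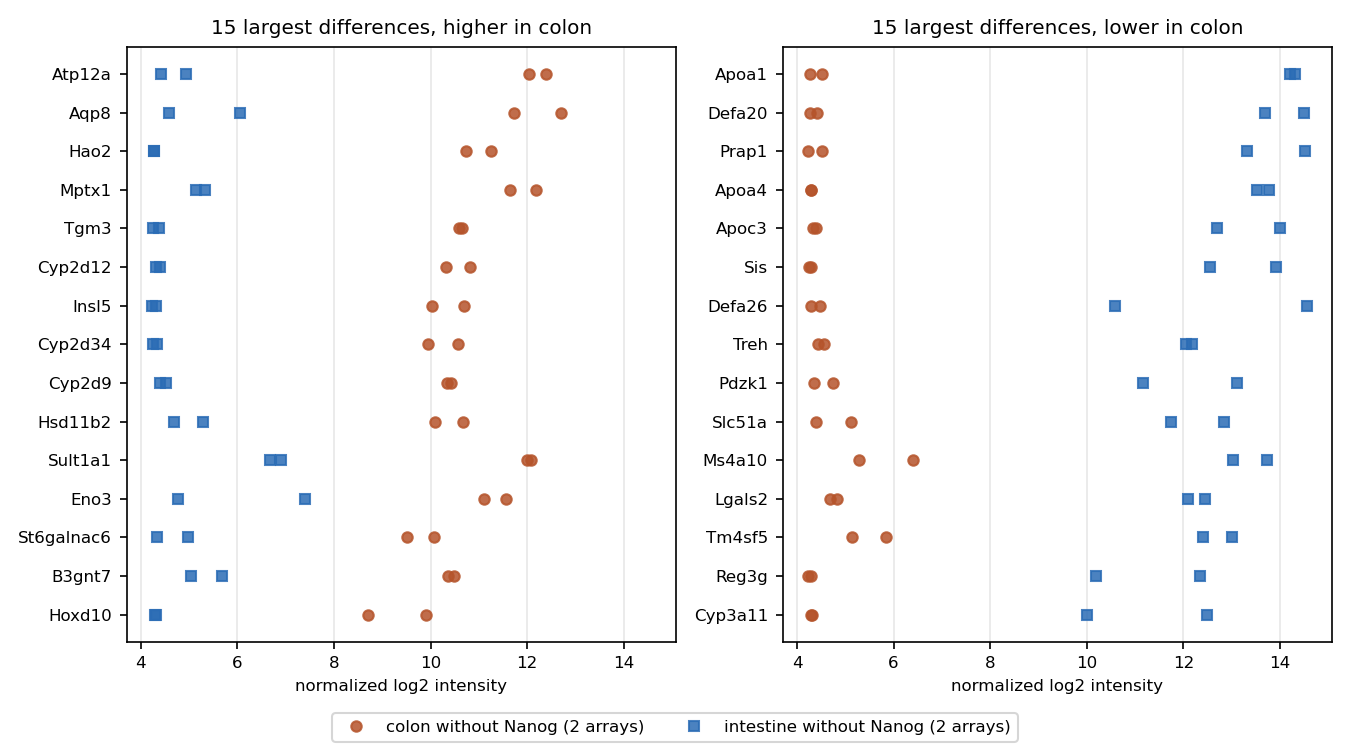
Normalized log2 intensity on each array without Nanog for the 15 called genes with the largest rises in colon (left) and the 15 with the largest falls (right), with colon as orange circles and intestine as blue squares, 2 arrays each. No gene has overlapping regions, and the intestine pairs of Eno3, Defa26, Reg3g and Cyp3a11 lie over 2 log2 units apart.

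The sequence before the start of 5 of these genes is printed because the regional difference is a difference in transcript level, and the promoter is where textbook regulators of gut genes bind. RefSeq gave the 250 bases before the start, 5′ to 3′ on the gene's strand, and capitals mark matches on either strand to 1 of 5 short motifs, each named for a factor or element known to use such letters. The motif searched for HNF4 was CAAAGTC. For HNF1 the letters searched were GTTAAT. For the CDX factors they were CATAAA, and for the GATA factors they were AGATAA. The TATA box was searched as TATAAA.
Sis on GRCm38.p6 (chr3:72967864-72968113, minus strand): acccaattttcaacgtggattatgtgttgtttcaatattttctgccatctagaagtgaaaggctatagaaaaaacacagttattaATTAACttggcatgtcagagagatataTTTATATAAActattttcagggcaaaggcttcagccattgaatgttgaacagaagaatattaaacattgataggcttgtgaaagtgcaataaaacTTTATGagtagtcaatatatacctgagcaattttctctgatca
Apoa1 on GRCm38.p6 (chr9:46228380-46228629, plus strand): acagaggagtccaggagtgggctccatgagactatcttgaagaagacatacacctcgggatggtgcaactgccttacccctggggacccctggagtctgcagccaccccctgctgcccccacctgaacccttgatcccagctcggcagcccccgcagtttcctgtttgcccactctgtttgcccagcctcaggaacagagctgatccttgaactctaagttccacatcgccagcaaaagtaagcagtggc
Apoa4 on GRCm38.p6 (chr9:46240594-46240843, plus strand): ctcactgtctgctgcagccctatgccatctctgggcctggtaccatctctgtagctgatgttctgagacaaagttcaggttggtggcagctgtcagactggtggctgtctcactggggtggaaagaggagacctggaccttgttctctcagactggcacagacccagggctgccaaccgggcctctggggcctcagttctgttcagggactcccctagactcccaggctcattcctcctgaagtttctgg
Aqp8 on GRCm38.p6 (chr7:123462044-123462293, plus strand): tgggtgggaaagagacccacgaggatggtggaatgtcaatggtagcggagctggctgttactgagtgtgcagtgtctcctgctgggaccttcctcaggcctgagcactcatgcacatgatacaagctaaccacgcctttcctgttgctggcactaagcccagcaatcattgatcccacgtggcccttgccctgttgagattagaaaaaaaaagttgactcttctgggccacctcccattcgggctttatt
Hoxd10 on GRCm38.p6 (chr2:74691641-74691890, plus strand): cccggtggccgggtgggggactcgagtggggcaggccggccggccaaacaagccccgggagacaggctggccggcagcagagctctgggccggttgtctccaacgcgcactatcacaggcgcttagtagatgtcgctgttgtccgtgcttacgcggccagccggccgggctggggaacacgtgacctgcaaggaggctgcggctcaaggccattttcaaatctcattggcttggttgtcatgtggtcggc
The window before Sis held the GTTAAT letters 165 bases before the start and the CATAAA letters 43 bases before it, both on the opposite strand, and overlapping TATAAA matches on both strands at 134 and 138 bases. The windows before Apoa1, Apoa4, Aqp8 and Hoxd10 held none of these letters. Among all 32851 RefSeq promoter windows of this length, CAAAGTC stood in 3.84%, GTTAAT in 6.43%, CATAAA in 10.8%, AGATAA in 9.99% and TATAAA in 12.4%. CAAAGTC stood in 9 of 231 windows of genes called higher in colon (3.9%) and in 22 of 307 windows of genes called lower (7.17%), against 3.19% of windows of tested genes not called. GTTAAT stood in 4.76% of the windows of genes called higher and 9.77% of those called lower, against 4.06% of those not called. AGATAA stood in 7.36% and 10.7%, against 5.91%, and CATAAA in 9.96% and 8.47%, against 6.18%. TATAAA stood in 10.4% and 10.1%, against 6.8%. These windows come from 188 genes called higher, 228 called lower and 6318 not called that had a promoter entry, and a gene with several starts counts once for each.

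Posterior Hox genes give hindgut tissues their position. 4 of the 16 genes of the list were tested and 3 were called higher, beside 2.99% of all genes tested. All 4 entered through the colon arrays and 0 were above background on all 4 arrays, so their direction was fixed by the filter and the count is a description. Hoxd10 had 9.91 and 8.70 in colon, against 4.29 and 4.32 in intestine and was at least 17.4-fold higher (adjusted p = 0.000678). Hoxd13, at the end of the cluster and its neighbour among the tested genes, had 6.67 and 6.47 in colon, against 4.50 and 4.28 in intestine and was at least 2.62-fold higher (0.00155). Hoxa9 was at least 1.42-fold higher (0.0206), and Hoxa13, above background on 1 intestine array, differed by 1.02 ± 0.25 (SE, adjusted p = 0.0617), which did not pass. Both called HoxD genes held their calls whichever array was left out, and Hoxa9 lost its call without intestine replicate 1, without either colon array and without either array of colon with Nanog. Of the 23 anterior and middle Hox genes, 9 were tested and 1 was called, Hoxa7, with 9.48 and 9.07 in colon, against 6.41 and 4.42 in intestine. Hoxa7 passed at 3.86 ± 0.87 (SE, adjusted p = 0.0455), and its call was lost without intestine replicate 2, on which it stood lower than on replicate 1, and without any colon array. Hoxa5, Hoxd4 and Hoxd8 differed by 1.52 ± 0.64, 1.19 ± 0.57 and 1.11 ± 0.42 without passing, and Hoxb2, Hoxb4 and Hoxb7 had differences below 0.

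Among 28 tested transcription factors of gut epithelium and regional identity, 1 was higher and 7 were lower in colon (2.99% and 3.47% of all genes). Of the 19 above background on all 4 arrays, 0 were higher and 1 was lower (2.2% and 2.52% of all such genes). The GATA factors Gata4 and Gata5 had 4.58 and 4.52 in colon, against 6.14 and 5.73 in intestine for Gata4 and 4.50 and 4.47 in colon, against 7.98 and 6.70 in intestine for Gata5. Both were below background on the colon arrays, at least 1.92-fold lower and at least 5.06-fold lower (adjusted p = 0.0171 and 0.0156), while Gata6, present in both regions, differed by -0.80 without passing. Creb3l3, a factor of fasting and lipid metabolism anchored in the endoplasmic reticulum, was at least 29.7-fold lower (0.000249), Isx, the homeobox repressor of vitamin A uptake, at least 7.61-fold lower (0.0206), Nr1i3, the nuclear receptor CAR, at least 7.72-fold lower (0.00279) and Hnf4g at least 1.44-fold lower (0.0432). Tbx3, a T-box factor above background on all 4 arrays, fell by 3.03 on the log2 scale (adjusted p = 0.00279). Foxa2, a forkhead factor of endoderm, had 6.37 and 6.28 in colon, against 4.26 and 5.01 in intestine and was at least 2.21-fold higher (0.0225). Factors shared by the whole gut did not pass. Hnf4a had 11.48 and 11.71 in colon, against 11.43 and 10.78 in intestine, a difference of 0.49 ± 0.30 (SE, adjusted p = 0.405). Cdx2, the intestinal master regulator, had 10.17 and 10.25 in colon, against 12.10 and 10.02 in intestine, a difference of -0.85 ± 0.68 (SE, adjusted p = 0.528) in which replicate 1 of intestine stood above both colon arrays and replicate 2 below them. The calls of Creb3l3, Nr1i3 and Tbx3 held whichever array was left out, and with any array left out 3 to 6 factors were called lower and 0 to 2 higher.

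**Figure D3:**
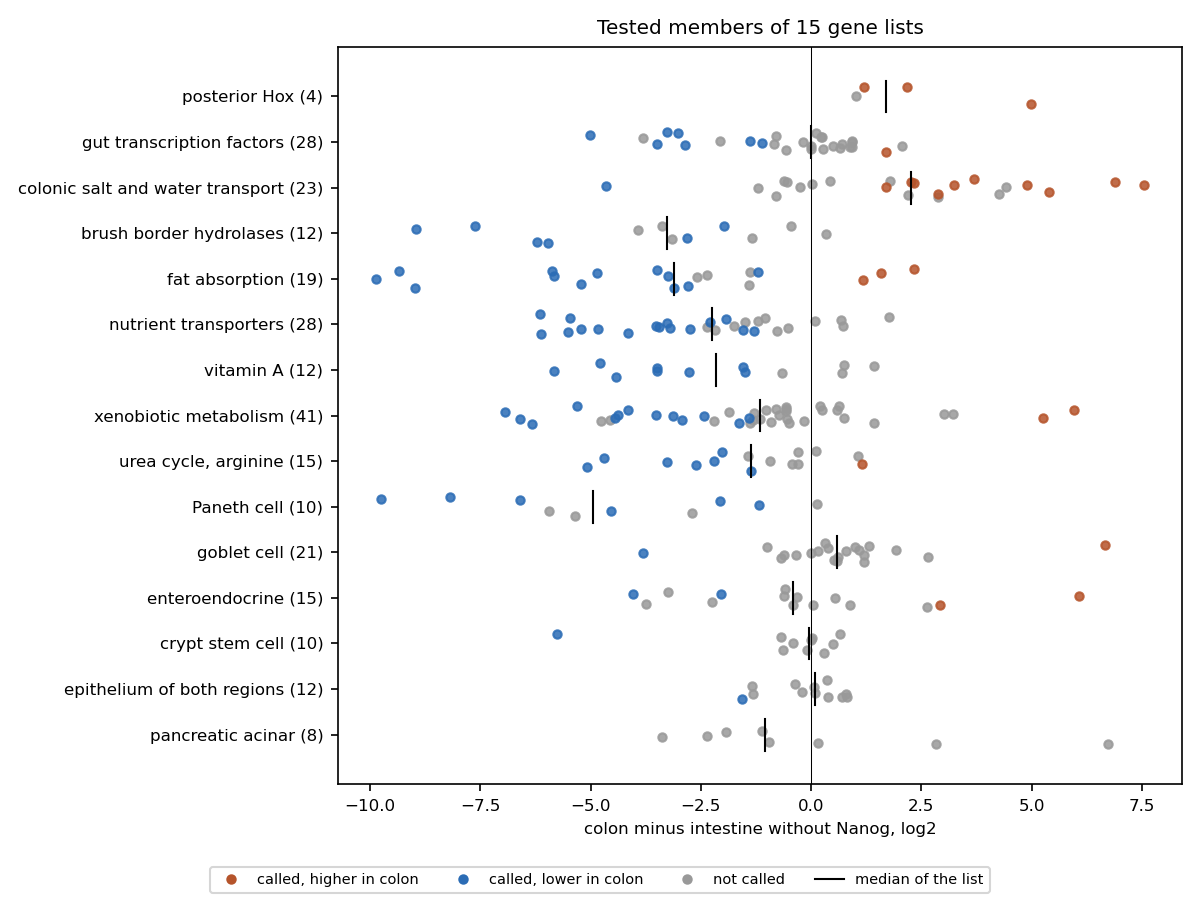
Difference between colon and intestine without Nanog (log2) for the tested members of 15 gene lists, with the number tested in brackets, orange for genes called higher in colon, blue for lower and grey for not called. The black line is the list's median, which lies at 2.26 for colonic salt and water transport and at -3.27 for brush border hydrolases, beside 0.11 for all genes. Over genes above background on all 4 arrays, which are not drawn apart, these medians were 0.23 and -2.39, beside 0.09 for all such genes.

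Digestive hydrolases of the brush border stood lower in colon. Of 21 genes of the list 12 were tested, 6 were called lower (3.47% of all genes) and 0 higher, with a median difference of -3.27. Among the 8 above background on all 4 arrays, 3 were lower (2.52% of all such genes). Besides Sis and Treh, the 6 genes called lower were the peptidases Anpep, Mme and Mep1b and the microvillar linker Cdhr2. Mme, a neutral endopeptidase, had 4.35 and 4.38 in colon, against 10.59 and 10.07 in intestine and was at least 40.2-fold lower (adjusted p = 0.000993). Anpep, aminopeptidase N, had 6.03 and 5.50 in colon, against 13.81 and 10.16 in intestine, so the intestine arrays lay over 3 log2 units apart, and the difference was -6.22 ± 1.25 (SE, adjusted p = 0.0323). Mep1b, a meprin subunit, differed by -2.80 ± 0.57 (SE, adjusted p = 0.0333) and Cdhr2 by -1.98 ± 0.36 (SE, adjusted p = 0.0214). The partner meprin Mep1a had 0.33 and the microvillus protein Vil1 -1.34 without passing. Anpep, Mep1b and Cdhr2 lost their calls without intestine replicate 1, the array high in this list, and without either colon array, Anpep and Mep1b also without either array of colon with Nanog, and with any array left out 3 to 10 of the 12 were called.

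Transporters of sugars, amino acids, nucleosides and vitamins stood mostly lower in colon. Of 37 genes 28 were tested, 16 were called lower in colon and 0 higher (3.47% and 2.99% of all genes), with a median difference of -2.24, and of the 17 above background on all 4 arrays 7 were lower (2.52% of all such genes). Slc6a19, the main carrier of neutral amino acids, had 4.63 and 4.88 in colon, against 11.57 and 10.24 in intestine and was at least 59.9-fold lower (adjusted p = 0.000303). Slc2a2, the basolateral glucose transporter GLUT2, had 4.32 and 4.39 in colon, against 9.03 and 10.68 in intestine and was at least 28.9-fold lower (0.00112). Slc5a1, the sodium-glucose cotransporter SGLT1, was well above background in colon too, with 8.40 and 8.31 in colon, against 12.22 and 10.90 in intestine, and differed by -3.21 ± 0.48 (SE, adjusted p = 0.0109). These 3 span the path of glucose and amino acids through the enterocyte, and none of their regions overlapped. Slc7a9, of the cystine carrier, differed by -5.21 ± 0.51, its relatives Slc7a8 and Slc7a7 by -4.15 ± 0.93 and -2.76 ± 0.60, and Slc6a20a, a proline carrier, was at least 1.85-fold lower. Slc2a5, the fructose transporter, was at least 3.07-fold lower (adjusted p = 0.0225), the nucleoside carriers Slc28a1 and Slc28a2 at least 17.4-fold lower and at least 7.44-fold lower, the inositol carrier Slc5a11 at least 6.61-fold lower and the anion exchanger Slc26a6 at least 52.2-fold lower. Amn, part of the vitamin B12 receptor, differed by -5.48 ± 1.12, Tcn2, a B12 carrier protein, by -1.93 ± 0.34, Mfsd2a, a lysophospholipid carrier, by -3.45 ± 0.40 and Heph, a ferroxidase of iron export, by -1.29 ± 0.26 (SE). The calls of Slc6a19, Slc2a2, Slc26a6, Slc7a9, Slc28a1 and Mfsd2a held whichever array was left out, and 6 to 17 of the list were called with any array left out. The iron exporter Slc40a1 had 1.76 and did not pass.

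Genes of dietary fat absorption mostly stood lower in colon. Of 25 genes 19 were tested, 12 were called lower and 3 higher (3.47% and 2.99% of all genes), with a median difference of -3.11, and of the 12 above background on all 4 arrays 6 were lower and 3 higher. Mttp, the transfer protein that loads lipid onto apolipoprotein B, had 4.59 and 4.42 in colon, against 10.56 and 10.13 in intestine and was at least 40.5-fold lower (adjusted p = 6.35e-05). Mogat2, which rebuilds triglyceride from monoglyceride, had 4.38 and 4.50 in colon, against 10.82 and 9.83 in intestine and was at least 40.1-fold lower (0.000233). Npc1l1, the cholesterol importer, had 4.36 and 4.24 in colon, against 10.93 and 8.13 in intestine and was at least 23.1-fold lower (0.0141). For the sterol exporters, which work as a pair, Abcg8 differed by -4.86 ± 0.52 (SE, adjusted p = 0.00217) and Abcg5 by -3.25 ± 0.58 (SE, adjusted p = 0.0206), and they are neighbours in the gene order. Dgat1, the last step of triglyceride synthesis, differed by -3.50 ± 0.45 (SE, adjusted p = 0.00561), the fatty acid-activating Slc27a4 and Acsl5 by -3.11 ± 0.57 and -2.80 ± 0.31, and Sar1b, which drives export of chylomicrons from the endoplasmic reticulum, by -1.21 ± 0.25 (SE, adjusted p = 0.0343). The 3 genes called higher were Acsl3, a lipid-droplet acyl-CoA synthetase, by 2.34 ± 0.49 (SE, adjusted p = 0.0373), Plin2, a lipid-droplet coat protein, by 1.58 ± 0.26 (SE, adjusted p = 0.0152), and Apobec1, the editing enzyme of the apolipoprotein B transcript, by 1.18 ± 0.27 (SE, adjusted p = 0.049). Apobec1 lost its call without any single array and Acsl3 and Plin2 lost theirs without either colon array, Acsl3 also without any array with Nanog, whereas the falls of Apoa1, Apoa4, Apoc3, Mttp, Mogat2, Abcg8 and Acsl5 held whichever array was left out. With any array left out 7 to 12 genes were called lower and 0 to 2 higher.

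Of the genes of bile acid uptake, export and signalling, 6 of 10 were tested and 3 were called lower in colon (3.47% of all genes). Of the 3 above background on all 4 arrays 1 was lower, with a median difference of -0.004. The untested members, Slc10a2, Fgf15, Nr0b2 and Gpbar1, were not above background on both arrays of either region. The list therefore does not tell which segment the intestine arrays hold. Besides Slc51a, its partner subunit Slc51b had 6.25 and 7.27 in colon, against 9.81 and 9.11 in intestine and differed by -2.70 ± 0.49 (SE, adjusted p = 0.0226), and the export pump Abcc2 had 4.39 and 4.83 in colon, against 8.63 and 9.18 in intestine and was at least 14.9-fold lower (adjusted p = 0.00167). Fabp6, the bile acid-binding protein of ileal enterocytes, had 5.58 and 5.84 in colon, against 7.70 and 5.01 in intestine, so that the intestine arrays lay on either side of colon, and its difference of -0.64 ± 2.34 (SE, adjusted p = 0.907) did not pass. The calls of Slc51a and Abcc2 held whichever array was left out.

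Retinoid metabolism, through which the small intestine turns dietary carotenoids into vitamin A, stood lower in colon. Of 22 genes 12 were tested, 8 were called lower and 0 higher (3.47% and 2.99% of all genes), with a median of -2.16, and of the 8 above background on all 4 arrays 5 were lower. Rbp2, the retinol-binding protein of enterocytes, had 6.36 and 6.34 in colon, against 11.35 and 10.94 in intestine, a difference of -4.79 ± 0.43 (SE, adjusted p = 0.00119). Rdh7, a retinol dehydrogenase, had 4.82 and 4.82 in colon, against 11.37 and 9.95 in intestine and was at least 50.6-fold lower (adjusted p = 0.000359). The colon replicates of both genes lay within 0.1 of each other, while the intestine replicates of Rdh7 lay over 1 log2 unit apart. Aldh1a1 and Aldh1a3, which make retinoic acid, differed by -2.78 ± 0.28 (SE, adjusted p = 0.00174) and -1.50 ± 0.23 (SE, adjusted p = 0.0109), Adh4, an alcohol and retinol dehydrogenase, was at least 13.5-fold lower (0.0328), and the carotenoid-cleaving Bco2 differed by -1.55 ± 0.35 (SE, adjusted p = 0.0467). Dgat1 and Isx, described above, belong to this list too. The calls of Rbp2, Rdh7 and Aldh1a1 held whichever array was left out, and 3 to 7 of the list were called with any array left out.

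Urea cycle and arginine enzymes, by which enterocytes make citrulline from glutamine, stood mostly lower in colon. Of 18 genes 15 were tested, 7 were called lower and 1 higher (3.47% and 2.99% of all genes). Of the 10 above background on all 4 arrays 4 were lower and 0 higher, with a median of -0.68, and with any array left out 4 to 8 of the list were called lower. Cps1, the first enzyme of the cycle, had 4.82 and 6.25 in colon, against 9.96 and 10.52 in intestine, a difference of -4.70 ± 0.49 (SE, adjusted p = 0.00198). Arg2, the mitochondrial arginase, had 5.73 and 6.04 in colon, against 11.54 and 10.42 in intestine, a difference of -5.09 ± 0.41 (SE, adjusted p = 0.000701). Otc, which makes citrulline, was at least 4.1-fold lower (adjusted p = 0.00555), Nags, which makes the activator of Cps1, at least 1.87-fold lower (0.0368), Slc25a15, the ornithine carrier, differed by -3.27 ± 0.31 (SE, adjusted p = 0.0015), Aldh18a1, which makes pyrroline carboxylate, by -2.02 ± 0.25 (SE, adjusted p = 0.00423) and Gpt, an alanine transaminase, by -2.20 ± 0.46 (SE, adjusted p = 0.0362). The enzymes that turn citrulline into arginine, Ass1 and Asl, had 1.06 and 0.12 without passing, and Glul, glutamine synthetase, was at least 1.73-fold higher (0.0283). The calls of Cps1, Arg2, Slc25a15 and Aldh18a1 held whichever array was left out.

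Drug- and toxin-metabolizing enzymes held large differences both ways. Of 63 genes of the list 41 were tested, 2 were called higher in colon and 13 lower (2.99% and 3.47% of all genes), with a median of -1.17, and of the 33 above background on all 4 arrays 1 was higher and 6 lower. The P450 genes Cyp2b10, Cyp3a25 and Cyp2c65 were at least 59.2-fold lower, at least 49-fold lower and at least 37-fold lower in colon (adjusted p = 0.00618, 9.18e-05 and 0.0214). Cyp2c65 had 4.90 and 4.90 in colon, against 9.02 and 11.40 in intestine. The related Cyp2c55 ran the other way, with 12.02 and 11.88 in colon, against 8.01 and 9.47 in intestine, and its difference of 3.21 ± 0.80 (SE, adjusted p = 0.0623) did not pass. Cyp3a13 fell by 2.42 on the log2 scale, Cyp4v3 by 4.37, Cyp4b1 by 3.12 and Cyp4f16 by 1.63. The carboxylesterase Ces2e differed by -2.92 ± 0.46, the glutathione transferase Mgst2 by -1.40 ± 0.29 and the glucuronosyltransferase Ugt2b36 by -4.45 ± 0.85, and Ugt2a3 was at least 7.12-fold lower. The 2 genes higher in colon, Sult1a1 and Cyp2d34, are among the largest rises above. Members of these families are close copies, so the probes of single genes may read their relatives. Cyp3a11, Cyp3a25, Cyp4v3, Cyp2d26, Ugt2a3, Sult1a1 and Cyp2d34 held their calls whichever array was left out.

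Salt, water and acid-base transport of colonocytes held more called rises than any other of the 34 lists. Of 33 genes 23 were tested, 10 were called higher in colon and 1 lower (2.99% and 3.47% of all genes), with a median of 2.26. Of the 14 above background on all 4 arrays 3 were called higher and 1 lower (2.2% and 2.52% of all such genes). The median of these 14 was only 0.23, with 8 differences above 0 and 6 below. The list's median of 2.26 thus rests largely on genes not above background on all 4 arrays. The subunits of the aldosterone-regulated sodium channel ENaC were 2 of them. Scnn1b had 7.11 and 6.91 in colon, against 4.29 and 5.05 in intestine and was at least 3.56-fold higher (adjusted p = 0.0148), and Scnn1a had 8.21 and 8.35 in colon, against 6.32 and 6.84 in intestine, a difference of 1.69 ± 0.34 (SE, adjusted p = 0.032). The third subunit, Scnn1g, had 2.19 and did not pass. Fxyd4, a regulator of the sodium pump, had 9.16 and 9.34 in colon, against 4.35 and 4.35 in intestine and was at least 16.8-fold higher (6.35e-05). Best2, a bestrophin anion channel of colonic goblet cells, had 8.37 and 7.92 in colon, against 4.46 and 4.45 in intestine and was at least 7.8-fold higher (0.000249). Intestine sat at background on both arrays for each of Scnn1b, Fxyd4 and Best2. The phosphate carrier Slc20a1 differed by 2.89 ± 0.31 (SE, adjusted p = 0.00234), the water channel Aqp4 by 3.25 ± 0.62 (SE, adjusted p = 0.026) and the sulfate carrier Slc26a2 by 2.26 ± 0.39 (SE, adjusted p = 0.019). Car4, a carbonic anhydrase, had 12.79 and 13.92 in colon, against 11.17 and 6.68 in intestine, and with intestine arrays over 4 log2 units apart its difference of 4.43 ± 1.51 (SE, adjusted p = 0.144) did not pass. Guca2b, uroguanylin, which drives fluid secretion, was the gene called lower, with 8.70 and 8.78 in colon, against 14.08 and 12.72 in intestine and -4.66 ± 0.46 (SE, adjusted p = 0.00155). Atp12a, Aqp8, Hsd11b2, Fxyd4, Best2, Slc20a1 and Guca2b held their calls whichever array was left out, Scnn1b, Scnn1a, Aqp4 and Slc26a2 lost theirs without either colon array, Scnn1a and Slc26a2 also without intestine replicate 1, Scnn1a and Aqp4 also without either array of colon with Nanog, and 6 to 12 of the list were called higher with any array left out.

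Paneth cell genes stood lower in colon. Of 26 genes 12 were matched to a probe here, 10 were tested, 6 were called lower and 0 higher (3.47% and 2.99% of all genes). Of the 3 above background on all 4 arrays 1 was lower, with a median of -1.18. Itln1, a lectin, had 4.34 and 5.60 in colon, against 12.02 and 11.14 in intestine, a difference of -6.61 ± 0.56 (SE, adjusted p = 0.000841). Mmp7, the protease that activates defensins, had 4.19 and 4.38 in colon, against 6.67 and 6.03 in intestine and was at least 2.55-fold lower (adjusted p = 0.00962). Habp2, a serine protease, had 4.47 and 4.22 in colon, against 7.40 and 10.36 in intestine and was at least 14.7-fold lower (0.0354). Lyz1, the Paneth cell lysozyme, had 13.26 and 13.10 in colon, against 14.64 and 14.07 in intestine on the probe in the test, which differed by -1.18 ± 0.27 (SE, adjusted p = 0.0485). Of 2 further Lyz1 probes 1 had 6.10 and 6.02 in colon, against 11.45 and 10.96 in intestine, a difference of -5.14, and the other, above background on all 4 arrays as well, differed by -5.69. The probe in the test was the brightest of the 3 and may also read the related Lyz2, the lysozyme of macrophages, which was called higher in colon by 2.26. The list's mean log2 intensity was 5.95 and 6.29 in colon, against 11.64 and 9.84 in intestine. The calls of Defa20 and Itln1 held whichever array was left out, and 2 to 8 of the list were called with any array left out.

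Goblet cell genes had few calls. Of 21 tested genes 1 was higher and 1 lower (2.99% and 3.47% of all genes), with a median of 0.58. With any array left out 1 to 4 were called higher, 4 of them without intestine replicate 2, and 0 to 2 lower. Tff3 and Zg16, secreted goblet cell products, had 0.32 and 0.15 without passing. Mptx1 was the gene called higher. Clca4b, of the calcium-activated chloride channel regulator family, had 5.08 and 6.17 in colon, against 10.68 and 8.17 in intestine, a difference of -3.81 ± 0.86 (SE, adjusted p = 0.0463) that was lost without intestine replicate 1, without either colon array and without any array with Nanog. Retnlb, a bactericidal goblet cell protein, had 5.68 and 9.65 in colon, against 4.33 and 5.69 in intestine, so that the colon arrays lay nearly 4 log2 units apart, and its difference of 2.66 ± 1.32 (SE, adjusted p = 0.302) did not pass.

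Gut hormones split by region. Of 15 tested genes 2 were higher in colon, Insl5 and Pyy, and 2 lower, Sct and Gip (2.99% and 3.47% of all genes). Of the 11 above background on all 4 arrays 1 was higher and 1 lower. Pyy, the satiety peptide of L cells, had 11.56 and 11.66 in colon, against 9.28 and 8.12 in intestine, a difference of 2.92 ± 0.45 (SE, adjusted p = 0.0122). Sct, secretin, had 7.60 and 8.21 in colon, against 11.32 and 12.56 in intestine, a difference of -4.04 ± 0.53 (SE, adjusted p = 0.00579). Gip, the incretin of K cells, had 4.78 and 4.72 in colon, against 7.48 and 6.12 in intestine and was at least 3.48-fold lower (adjusted p = 0.0326). Cck, cholecystokinin, had 4.31 and 4.36 in colon, against 7.27 and 7.91 in intestine and did not pass (adjusted p = 0.0685). Several alternatives called it lower: the authors' values, median scaling, the replicate block, only the 4 arrays and the pancreatic covariate. Gcg, which encodes GLP-1, had 2.62. The pan-endocrine granule protein Chga had -0.33. Insl5 held its call whichever array was left out, Pyy and Gip lost theirs without either colon array, Gip also without any array with Nanog, and Sct without colon replicate 1.

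Of 10 tested crypt and stem cell genes 1 was called lower and 0 higher. Of all genes tested 3.47% were lower and 2.99% higher, shares that also stand beside the claudin and ketone counts below. The called gene was Olfm4, the olfactomedin of small intestinal crypt base cells, with 4.47 and 4.29 in colon, against 9.57 and 10.72 in intestine. It was at least 35.4-fold lower in colon (adjusted p = 0.000318), and its call held whichever array was left out. Ascl2, a stem cell factor, had 5.30 and 5.33 in colon, against 5.36 and 4.66 in intestine, a difference of 0.30 ± 0.32 (SE, adjusted p = 0.645), and Lrig1 and Bmi1 had 0.65 and -0.64. Among antimicrobial and microbe-induced epithelial genes, 1 of 19 was higher and 2 lower (2.99% and 3.47% of all genes), and of the 7 above background on all 4 arrays 0 were called. 5 were called higher without intestine replicate 2, and 4 lower with only the 4 arrays without Nanog. Saa1, a serum amyloid A protein, had 9.03 and 9.30 in colon, against 4.79 and 4.53 in intestine and was at least 15.8-fold higher (adjusted p = 0.0015), which held whichever array was left out. Reg3g and Itln1 were the 2 lower ones, and Reg3b, a lectin close to Reg3g, had 4.45 and 4.25 in colon, against 14.35 and 11.03 in intestine and did not pass (adjusted p = 0.109). Of 10 tested claudins, the sealing and pore proteins of tight junctions, 1 was called, the pore-forming Cldn15, with 8.37 and 7.92 in colon, against 11.90 and 10.80 in intestine and -3.21 ± 0.38 (SE, adjusted p = 0.00367), also whichever array was left out. Claudins 3, 10 and 23 had 0.81, 0.79 and 0.90 without passing. Of 17 ketone and fatty acid oxidation genes 1 was higher, Acsm3, a medium-chain acyl-CoA synthetase, by 3.34 ± 0.55 (SE, adjusted p = 0.0156), and 1 lower, Acaa1b, a peroxisomal thiolase, by -4.00 ± 0.76 (SE, adjusted p = 0.0258), and both lost their calls without either colon array, Acaa1b also without intestine replicate 2 and without either array of colon with Nanog.

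**Figure D4:**
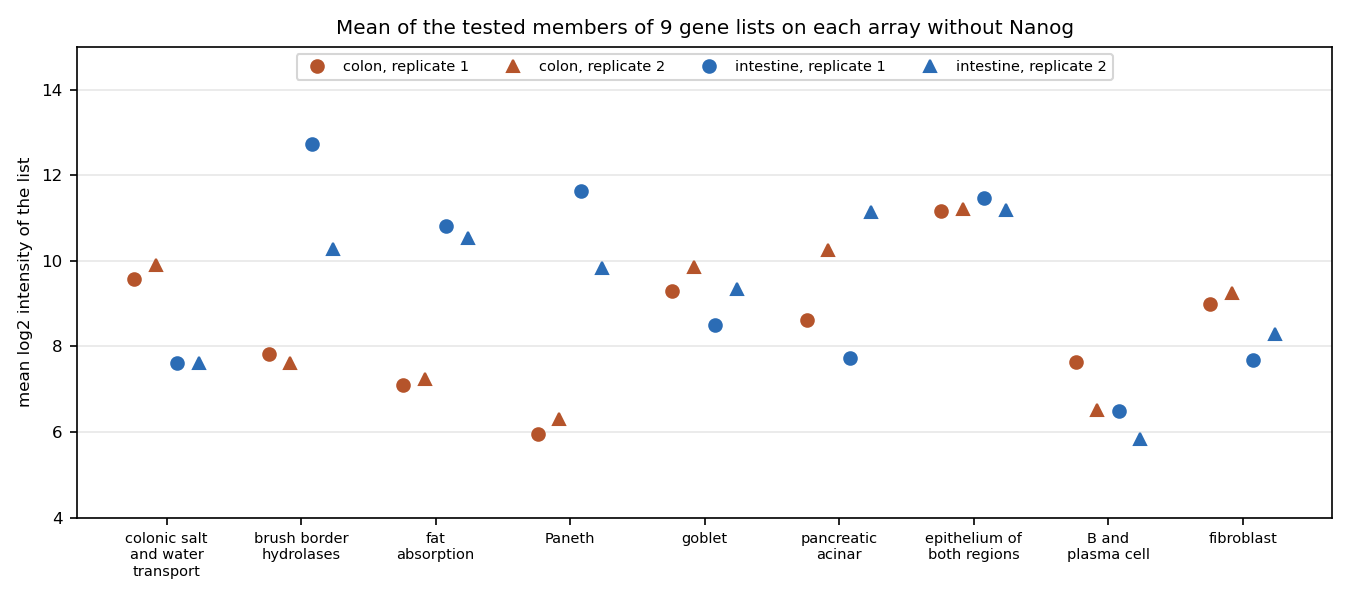
Mean normalized log2 intensity of the tested members of 9 gene lists on each array without Nanog, colon in orange and intestine in blue, replicate 1 as circles and replicate 2 as triangles. Colon and intestine separate in salt and water transport, hydrolases, fat absorption, Paneth and fibroblast genes, and narrowly in B and plasma cell genes. The pancreatic list follows the replicate rather than the region, and epithelial genes stand between 11.18 and 11.46 on all 4 arrays.

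Lists of other cell types were read beside these results, and their part in the differences was not tested. Of all genes tested 2.99% were called higher and 3.47% lower. With lists this small, 1 or 2 calls are not read as a result about a cell type. All 14 fibroblast genes tested had differences above 0, from 0.17 to 1.64 log2 units, beside 4878 of the 8262 genes tested. Of these 14, 0 were called, but 6 were called higher without intestine replicate 2, and their mean was 8.99 and 9.25 in colon, against 7.68 and 8.29 in intestine. All 15 tested genes of myeloid cells and MHC class II had differences above 0 too, with 0 called, 3 called higher without intestine replicate 2, a mean of 8.66 and 9.04 in colon, against 7.67 and 7.79 in intestine, and the widest differences in Cd14, C1qc and C1qb, of 2.15, 1.70 and 1.64. Of 15 smooth muscle genes 2 were higher, Tagln by 1.14 ± 0.24 (SE, adjusted p = 0.0377) and Csrp1 by 1.43 ± 0.30 (SE, adjusted p = 0.0365). Of 8 B and plasma cell genes 1 was higher, Mzb1, a plasma cell chaperone, by 1.58 ± 0.36 (SE, adjusted p = 0.0463), and of 12 T cell and cytotoxic genes 1 was lower, Ccl5, a chemokine, by -2.52 ± 0.42 (SE, adjusted p = 0.0155). The enteric neuron and glia list had 1 of 7 higher, Ano1, the chloride channel of pacemaker cells, by 2.33 ± 0.53 (SE, adjusted p = 0.0477), and the 11 endothelial genes had 0 called, with Vwf and Pecam1 at 0.94 and 0.65. Of 7 adipocyte genes 1 was higher, Lpl, a lipoprotein lipase, by 2.16 ± 0.38 (SE, adjusted p = 0.019), of 5 mesothelial genes 1 was lower, Upk1b, by -1.05 ± 0.23 (SE, adjusted p = 0.0419), and of 2 squamous genes 1 was higher, the basal keratin Krt14, at least 1.53-fold higher (adjusted p = 0.0228). Tagln, Csrp1, Mzb1, Ccl5, Lpl, Upk1b, Ano1 and Krt14 each lost their call without 1 or more of the arrays. The lists of mast cells (2 tested), liver (3) and red cells (1) had 0 called, and 0 of the 10 stomach genes on the array were above background. The pancreatic list had 8 of its 20 genes on the array tested and 0 called. Its widest difference, Sycn, a secretory granule protein, had 14.54 and 13.34 in colon, against 5.98 and 8.44 in intestine, with 6.73 ± 2.46 (SE, adjusted p = 0.17). With the mean of the pancreatic list as a covariate limma called 621 genes, and 502 of the 534 were among them.

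The 4 arrays with Nanog gave a second reading of the regional difference on tissue that the comparison had not used, although limma pooled the spread over both sets. With Nanog, 586 of the 8262 genes were called (7.09%), 277 higher (3.35%) and 309 lower (3.74%) in colon. Of the 534 genes called without Nanog, 529 had the same sign with Nanog, and for 509 the arrays with Nanog also lay wholly on the same side. No share over all 8262 genes is given here for either count, so both only describe the called genes. 334 were called in both with the same direction, which is 62.5% of those called without and 57% of those called with Nanog, and 0 were called in opposite directions. The 2 differences correlated with r = 0.844 over the 8262 genes, a description, since genes share arrays and are no replicates. Genes at background in a region have no exact difference, so values are given for genes above background on all 8 arrays. Anpep had -6.22 without and -5.86 with Nanog, Rbp2 -4.79 and -4.57 and Guca2b -4.66 and -5.94. Among the rises, Slc20a1 had 2.89 without and 2.95 with Nanog, Pyy 2.92 and 3.22 and Sult1a1 5.26 and 2.47. Arg2 had -5.09 without and -0.94 with Nanog. The test of the difference between the regional differences called 0 genes in limma, with 346 at an unadjusted p under 0.05 and a smallest adjusted p of 0.089, so no gene can be called particular to tissue without Nanog.

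**Figure D5:**
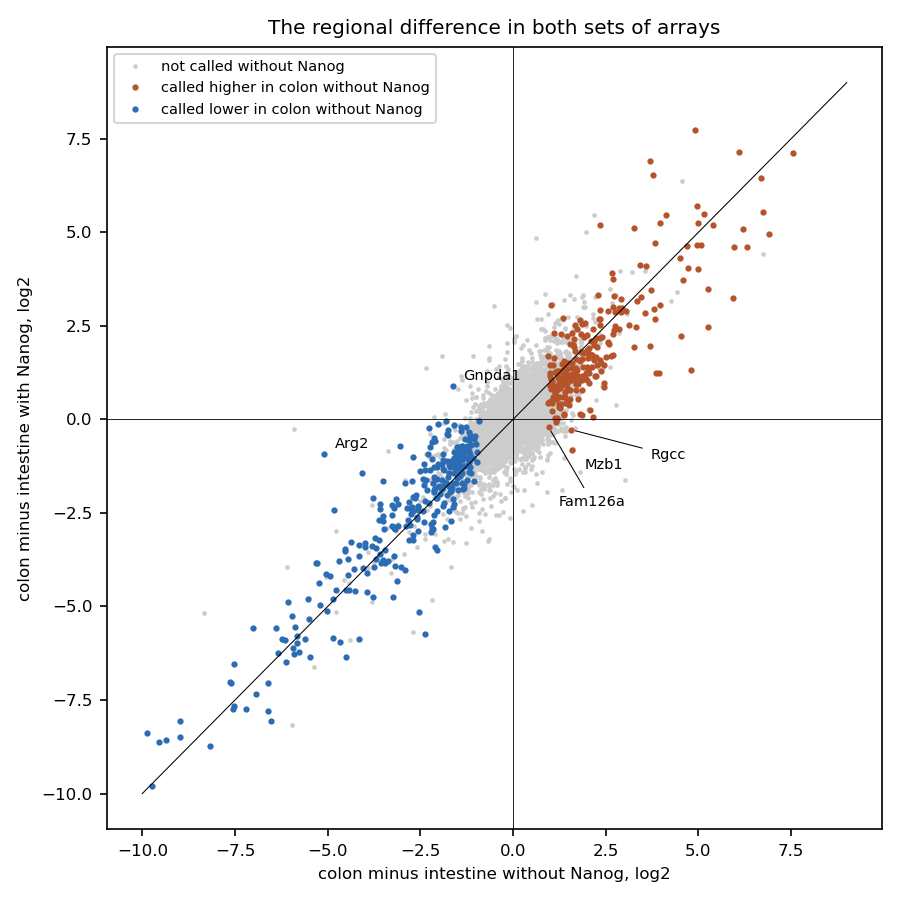
Difference between colon and intestine (log2) without Nanog on the x axis and with Nanog on the y axis for the 8262 genes, 4 arrays behind each axis, with the line of equal values. Orange and blue points, the genes called without Nanog, run along the line, Arg2 lies above it among the falls, and Gnpda1, Mzb1, Rgcc and Fam126a lie across the horizontal zero line.

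33 of the called genes named here had 48 further probes above background in a group. A probe that entered through 1 region only had to differ in that direction, so the count was taken over the 21 probes of 14 genes that were above background on all 4 arrays. All 21 differed in the same direction as the probe in the test, and 16 lay within 0.5 log2 units of it. Sar1b had -1.45 beside -1.21, and Cyp3a13 had -2.85 and -2.57 beside -2.42. The widest gaps among the 21 were those of Lyz1, given above. Further probes that were above background on both arrays of neither region were not counted. Among them were those of Defa20, with -5.15 beside -9.75, and Cyp2b10, with -0.56 beside -6.61. Dimmer further probes, at background on 1 or both colon arrays, had narrower differences that are not exact, with -1.87 beside -5.21 for Slc7a9, -2.23 beside -4.29 for Abcc2, -1.44 beside -3.03 for Tbx3 and -2.76 on both further probes beside -5.51 for Slc2a2. Among 8241 pairs of tested genes that follow each other in the GRCm38.p6 gene order, 61 had both genes called, 21 both higher, 26 both lower and 14 in opposite directions. Of all genes 6.46% were called, and no expected number of pairs was computed, so these counts are a description. The pairs both lower included Apoa1 with Apoc3, Abcg5 with Abcg8, Cyp3a11 with Cyp3a25, Ugt2b36 with Ugt2a3 and Defa20 with Defa26. Those both higher included Hoxd13 with Hoxd10, St6galnac4 with St6galnac6, Cyp2d12 with Cyp2d34 and Ppy with Pyy. The defensin, Cyp and Ugt pairs named here are close copies, so their probes may read each other's transcripts. Pairs in opposite directions included Lyz2 with Lyz1, the hexokinases Hk1 with Hkdc1, and Pyy with Nags.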

How the data were processed

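Biotin-labelled cRNA from total RNA was hybridized to Illumina arrays, per the labels' protocols. Per the submitters' processing notes the tools were BeadStudio 3.2, RMA and lumi, whose order and settings the sources used here do not give. The first deposited table holds the raw intensity of each probe, not yet background-corrected or normalized as its values show, and a detection p-value, and a second deposited table holds the authors' normalized log2 values.

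Intensities were background-corrected in limma 3.58.1 under R 4.3.3 (normexp, controls inferred from detection p-values, offset 16), quantile-normalized over 8 arrays and taken to log2, which understates differences of dim genes. The platform annotation gave Entrez identifiers, matched to symbols of GRCm38.p6 (23978 probes named, 1719 not), and the brightest probe stood for a gene. All 8 arrays entered a linear model of group means (4 residual and 3.29 prior degrees of freedom) and limma's moderated test adjusted over 8262 genes by Benjamini-Hochberg. The precision is limited by 2 arrays per group. Replicate numbers were not shown to pair samples (correlation of their deviations 0.279), and no batch is labelled. The test was run on simulated arrays with known differences, which checks the computation and not these samples.

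The members, the 34 gene lists and the tests were chosen with earlier results of these data known, so no list is independent support, and lists were counted, not tested. Genes named are the 15 largest called differences each way, a fixed panel, and the called members of each list or its 4 largest. Others were named after their values were seen, as were 7 lists in the closing section. Alternatives changed the values (the authors' own), the background correction (none, or offset 50), the scaling (median, or cyclic loess), and also comprised 3 other detection filters, the mean of probes, the replicate block, a variance trend, array weights, only the 4 arrays, a 2-fold minimum, each array left out and a pancreatic covariate.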

Additional observations from a re-analysis of the deposited data

Results flagged for a closer look

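4 genes called between colon and intestine without Nanog had arrays with Nanog that lay wholly on the opposite side, and for each the difference between the regional differences did not pass limma's test. Mzb1, a plasma cell chaperone, differed by 1.58 log2 units without Nanog (10.27 and 10.17 in colon, against 8.22 and 9.06 in intestine) and by -0.82 with Nanog (6.65 and 6.72 in colon, against 7.88 and 7.11 in intestine), with an adjusted p of 0.678 for the difference. Its colon arrays thus stood over 3 log2 units apart between tissue with and without Nanog. Gnpda1, a glucosamine-6-phosphate deaminase, differed by -1.62 without Nanog and by 0.89 with Nanog (adjusted p of the difference 0.676). Rgcc, a cell cycle regulator, differed by 1.57 and by -0.28 (0.448), with 9.69 and 9.71 in colon without Nanog against 8.01 and 8.26 in intestine. Fam126a differed by 0.96 and by -0.21 (0.998). Slc7a10, an amino acid carrier, had 1.16 without Nanog and -0.06 with Nanog, where the regions overlapped and its log2 intensities, from 4.27 to 4.58, were near background. Of the plasma cell genes beside Mzb1, Pou2af1 had 1.41 without and -0.32 with Nanog, and Cd79a 0.83 and -0.39, neither passing.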

How the results depend on the processing

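Each of the 534 called genes that an alternative tested kept its direction under each alternative run. The colon and intestine arrays of these genes did not overlap. Leaving out or weighting arrays, or changing only the model of the spread, could therefore not turn the direction. In those settings the kept direction was fixed in advance. Of 534 genes called (247 higher, 287 lower), the total was 308 (149 and 159) with no detection filter, which tests 16590 genes, 272 (118 and 154) with detection on both arrays of both groups, which drops genes at background in 1 region, 225 (83 and 142) with only the 4 arrays without Nanog, and 133 (47 and 86) with a 2-fold minimum. Array weights gave 144 higher and 216 lower, and median scaling 146 higher and 261 lower. The share of calls that were higher was 46.2% in the main setting, 35.9% with median scaling, 39.96% with cyclic loess, 40% with array weights, 36.9% with only the 4 arrays and 35.3% with the 2-fold minimum. Apart from which array was left out, the other settings called 441 to 621 genes. With 1 array left out, the total ran from 147 to 826, the genes higher from 59 to 393 and the genes lower from 88 to 433, lowest without colon replicate 1 and highest without intestine replicate 2. Of 164 called genes named by the rule, 69 were called whichever array was left out. The call was lost by 92 without colon replicate 2, 89 without colon replicate 1, 45 without intestine replicate 1 and 15 without intestine replicate 2, by 56 without either array of colon with Nanog and by 18 without either array of intestine with Nanog. For a group with Nanog, either array left out gives the same fit, so these losses reflect only a change in the pooled spread. With the replicate block limma called 613 genes, 507 of the 534 among them. The deviations of same-numbered colon and intestine arrays correlated with r = 0.279 across genes, a hint from 2 pairs and not from the design. Changes of dim genes are limited by the background: 310 of the genes tested were at background on both intestine arrays and 151 on both colon arrays. The causes of these shifts were not tested beyond the number of genes or arrays that each setting uses.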

Other observations

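7 further groups of genes were listed after the values had been seen, so their counts describe these arrays and support nothing on their own. The shares to set beside each count in this section are 2.99% higher and 3.47% lower among all genes tested. Among genes above background on all 4 arrays they are 2.2% and 2.52%. Genes that oxidize hydrogen sulfide, a product of colonic bacteria, stood higher in colon in 5 of 8 tested cases, beside 2.99% of all genes, and in 5 of the 7 above background on all 4 arrays, beside 2.2%. Sqor, the quinone oxidoreductase that takes up sulfide, had 9.90 and 9.90 in colon, against 7.37 and 8.45 in intestine, and Ethe1, the persulfide dioxygenase, had 10.95 and 11.73 in colon, against 8.06 and 9.50 in intestine. The rhodanese Tst had 10.38 and 10.54 in colon, against 6.88 and 8.56 in intestine, and Selenbp1, a methanethiol oxidase, had 13.09 and 12.89 in colon, against 9.35 and 9.04 in intestine. The differences were 1.99 ± 0.39 (SE, adjusted p = 0.0311), 2.57 ± 0.58 (SE, adjusted p = 0.0473), 2.74 ± 0.50 (SE, adjusted p = 0.0221) and 3.79 ± 0.31 (SE, adjusted p = 0.000742), and Selenbp1 kept its call whichever array was left out. The remaining called gene, Selenbp2, is a close copy of Selenbp1. Their probes may read each other's transcripts, so the count may hold the same signal more than once. Sialic acid genes were higher in 6 of 15 cases (3 of the 10 above background on all 4 arrays), among them St6gal1 by 2.70 ± 0.26 (SE, adjusted p = 0.0015), St6galnac4 by 3.56 ± 0.39 (SE, adjusted p = 0.00234) and the sialic acid synthase Nans by 2.69 ± 0.35 (SE, adjusted p = 0.00597). Of 19 glycan-extending enzymes 4 were higher, but 0 of the 12 above background on all 4 arrays, whose median was -0.09. Of 7 NADPH oxidase genes 3 were higher (2 of the 6 above background on all 4 arrays), with Nox1, the epithelial superoxide-producing oxidase, at 7.31 and 8.43 in colon, against 4.24 and 4.89 in intestine, at least 6.44-fold higher (adjusted p = 0.00439).

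Genes of sugar metabolism differed both ways. Of 10 tested genes of fructose use and gluconeogenesis 9 were lower in colon and 0 higher, beside 3.47% and 2.99% of all genes, and of the 5 above background on all 4 arrays 4 were lower. Khk, ketohexokinase, had 7.49 and 7.34 in colon, against 11.86 and 10.40 in intestine, a difference of -3.71 ± 0.53 (SE, adjusted p = 0.00912), Fbp1, fructose bisphosphatase, had 5.30 and 4.59 in colon, against 8.92 and 8.97 in intestine, and G6pc, glucose-6-phosphatase, was at least 3.96-fold lower (adjusted p = 0.00155). Of 15 genes of glucose uptake and glycolysis 4 were higher and 0 lower (3 and 0 of the 14 above background on all 4 arrays), with Slc2a1, the glucose transporter GLUT1, at 11.10 and 11.38 in colon, against 7.76 and 9.33 in intestine, a difference of 2.69 ± 0.47 (SE, adjusted p = 0.0194), and the hexokinases Hk2 and Hk1 at 2.56 ± 0.53 (SE, adjusted p = 0.036) and 1.63 ± 0.31 (SE, adjusted p = 0.0245). Genes of the vesicle coat that exports cargo, chylomicrons included, from the endoplasmic reticulum were lower in 7 of 18 cases, among them Sec16b by -2.13 ± 0.39 (SE, adjusted p = 0.0222), Sec24d by -1.50 ± 0.30 (SE, adjusted p = 0.0302) and Tfg by -1.41 ± 0.26 (SE, adjusted p = 0.023), and all 18 were above background on all 4 arrays. Ribosomal protein genes had 50 of 52 differences above 0, beside 4878 of 8262 for all genes, with a median of 0.44 and 1 called.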
